A study of Mus musculus with 16 samples.

Results

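The miR-29 family comprises 3 mature microRNAs in the count table, miR-29a-3p (MIMAT0000535), miR-29b-3p (MIMAT0000127) and miR-29c-3p (MIMAT0000536), of 853 microRNAs in all. They were taken by miRBase identifier, and the family was selected on its levels in the 4 genotype groups and on the relation of miR-29b-3p to library depth, so its tests are given as its place in a fit of the whole table and not as independent evidence. Small RNA was sequenced from conventional type 1 dendritic cells (cDC1s), the dendritic cells specialised in presenting captured antigen to CD8+ T cells, sorted from the spleens of C57BL6 mice. The study asked what Xbp1 and Ire1a do in these cells. There were 16 libraries, 4 in each of 4 groups: Xbp1 KO (Xbp1-deficient), Xbp1-line WT (wild type), Xbp1-Ire1 KO (deficient for Xbp1 and Ire1a) and Xbp1-Ire1-line WT. The line of a WT library rests on the prefix of its description alone, since the titles say only WT, and every comparison with a line's own WT depends on it. The deletion of Xbp1 is thus shared by both KO groups.

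The labels do not say what deletes the genes, in which cells, or how old the mice were, or whether each replicate was a mouse of its own, so p-values here reflect only how far these libraries differed from one another, and that spread may be technical. Library totals ran between 175165 and 1403393 counts, and the mean total was higher in the Xbp1 KO libraries (1065600 ± 261195, SD, n = 4) than in the Xbp1-line WT libraries (825763 ± 322500), whereas the Xbp1-Ire1 KO (524042 ± 341425) and Xbp1-Ire1-line WT (518607 ± 252471) means lay close together. The table holds no mRNA, so the genotypes were not checked against the deleted genes, and its identifiers carry no names, so microRNAs that mark other spleen cells and the 5p arms of the miR-29 hairpins were not analysed here. In RNA from sorted pools, fewer cells of a type and less RNA per cell cannot be told apart.

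A microRNA guides Argonaute to messenger RNAs that pair with its seed, the bases next to its 5′ end, and lowers their output. The miR-29 family is known for repressing messages of collagens and other matrix proteins in fibroblasts and, in human lung cancer cells, of the DNA methyltransferases DNMT3A and DNMT3B; in mouse T cells it restrains interferon gamma and the transcription factors T-bet and Eomes. IRE1, encoded by Ire1a (Ern1), is an endoplasmic reticulum sensor whose nuclease splices the Xbp1 message and can also cut other RNAs, and XBP1 is the transcription factor made from the spliced message.

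The 3 mature sequences, from RefSeq on GRCm38.p6, are shown because they fix what the members share and how reads can tell them apart. They are written 5′ to 3′ with the seed (bases 2 to 8) in capitals.
miR-29a-3p: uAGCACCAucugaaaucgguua
miR-29b-3p: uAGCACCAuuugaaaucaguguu
miR-29c-3p: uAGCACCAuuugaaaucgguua
The seed was identical in the 3 members, and no other name among the 1679 mature microRNAs of the RefSeq table carried it. Counting positions from 1 at the 5′ end and giving the miR-29a-3p base first, miR-29c-3p differs from miR-29a-3p by 1 substitution, C10U. By the same count miR-29b-3p differs from miR-29a-3p by 4 substitutions, C10U, G18A, U21G and A22U, and is 1 base longer. It ends in AGUGUU, a hexamer known in human cells as a signal for nuclear import of miR-29b, and 2 of the 1679 mature names (0.119%) end in these letters. The sources used here do not say how reads matching several microRNAs were counted, and reads of miR-29a-3p and miR-29c-3p may be split uncertainly.

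The members come from 4 hairpins in 2 clusters, shown because miR-29b-3p is made at both. In the hairpins the mature arm is in capitals, and the sequences are again from RefSeq on GRCm38.p6.
Mir29a: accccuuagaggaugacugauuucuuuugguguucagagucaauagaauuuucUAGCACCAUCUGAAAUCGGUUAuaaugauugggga
Mir29b-1: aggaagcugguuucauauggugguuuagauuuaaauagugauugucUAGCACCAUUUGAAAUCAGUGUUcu
Mir29b-2: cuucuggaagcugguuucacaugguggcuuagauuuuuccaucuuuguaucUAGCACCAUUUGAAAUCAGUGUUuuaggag
Mir29c: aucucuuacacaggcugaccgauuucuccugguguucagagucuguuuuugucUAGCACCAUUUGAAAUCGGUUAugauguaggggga
Mir29a (chr6:31062660-31062747) and Mir29b-1 (chr6:31063023-31063093) lie on the minus strand with 275 bases between them. Mir29b-1 overlaps the edge of the lincRNA Gm27019 on the same strand. Mir29b-2 (chr1:195037040-195037120) and Mir29c (chr1:195037547-195037634) lie on the plus strand 426 bases apart, inside an exon of the noncoding transcript A330023F24Rik and opposite an exon of Cd46, which encodes a complement regulator. The mature arm of miR-29b-3p is the same at both clusters, so its reads cannot be assigned to one. The letters CUGCAG (a palindrome, so both strands) are a form of the core of the sites that IRE1 cuts in stem loops. They occurred in 0 of the 4 hairpins and in 75 of 1005 mouse hairpins in the table (7.46%). This says only that these letters are not in these windows, and other forms of the core were not searched.

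Levels are given as CPM, read counts relative to a common library size, scaled by trimmed mean of M values (TMM) in edgeR so that libraries of different depth and composition can be set side by side. Levels of different microRNAs also carry ligation differences, so members are compared mainly across libraries. miR-29a-3p was the abundant member, with 13887 reads over the 16 libraries and a rank between 51 and 63 of the 853 microRNAs. miR-29b-3p had 705 reads and ranks between 100 and 214. miR-29c-3p had 110 reads in all and ranks between 185 and 412. All 3 passed the filter on low counts, which asked for at least 13.0 CPM in at least 4 libraries. miR-29a-3p and miR-29b-3p reached it in all 16. miR-29c-3p reached it in 6 libraries, of which 0 were Xbp1 KO, 2 Xbp1-line WT, 1 Xbp1-Ire1 KO and 3 Xbp1-Ire1-line WT, so it was tested mainly through WT libraries.

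**Figure D1:**
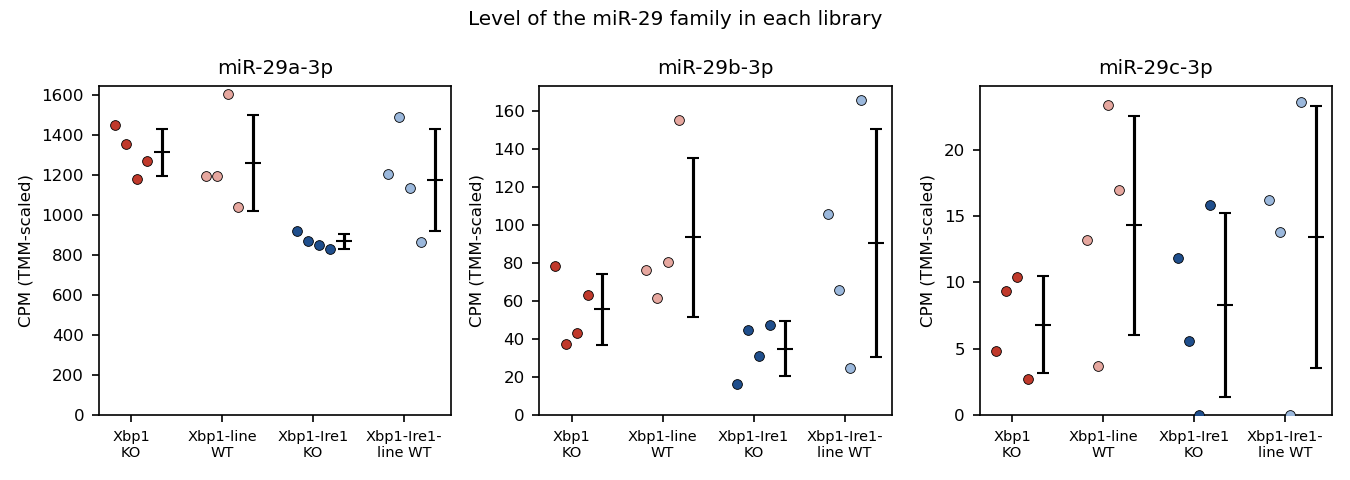
CPM (TMM-scaled) of each member by group, 1 point per library with mean and SD beside it (n = 4 each). miR-29a-3p lies between 830 and 918 CPM in the 4 Xbp1-Ire1 KO libraries, below the 1178 to 1446 CPM of the Xbp1 KO libraries, while for miR-29b-3p the WT groups spread the widest.

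miR-29a-3p was lower in Xbp1-Ire1 KO than in Xbp1 KO cDC1s, the only difference among the members that passed the test. It stood at 918, 870, 850 and 830 CPM in Xbp1-Ire1 KO replicates 1 to 4, against 1446, 1356, 1178 and 1266 CPM in Xbp1 KO replicates 1 to 4. Every Xbp1-Ire1 KO library lay below every Xbp1 KO library. The means were 867 ± 37.5 CPM and 1312 ± 116 CPM (SD, n = 4 each). On the log2 scale the fold change was -0.60 (SE 0.16, 95% interval -0.94 to -0.26, edgeR quasi-likelihood test with Benjamini-Hochberg adjustment over the 255 microRNAs tested, adjusted p = 0.0362). Of all tested microRNAs, 7.45% passed in this comparison, 2.35% as lower, and 7.06% had every Xbp1-Ire1 KO library below every Xbp1 KO library. The split of these calls, 13 higher and 6 lower, depended on the scaling, with 14 and 1 on total counts alone and 4 and 22 with upper-quartile scaling.

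The call was close to the threshold, between groups that also differed in mean library total (1065600 in Xbp1 KO and 524042 in Xbp1-Ire1 KO). It was lost when any 1 of 5 libraries was left out, Xbp1 KO replicates 1 and 2 and Xbp1-Ire1 KO replicates 2, 3 and 4, at log2 fold changes between -0.66 and -0.58 and edgeR adjusted p between 0.0582 and 0.112. The call was also lost with scaling on total counts alone (-0.54, edgeR adjusted p = 0.0834), with log2 total count as a covariate (-0.51, 0.225) and by limma on the deposited log2 values (-0.65, adjusted p = 0.247). Without those 5 libraries 0, 0, 1, 1 and 7 of the 255 microRNAs passed, in that order, and 3 with the covariate, against 19 in the main fit. The call was kept by DESeq2 (-0.64, adjusted p = 0.00381) and limma voom (-0.58, adjusted p = 0.0412). In edgeR it was kept without the filter (-0.76, adjusted p = 0.00531), with upper-quartile scaling (-0.84, 0.00709) and after thinning to the smallest total (-0.83, 0.0103).

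**Figure D2:**
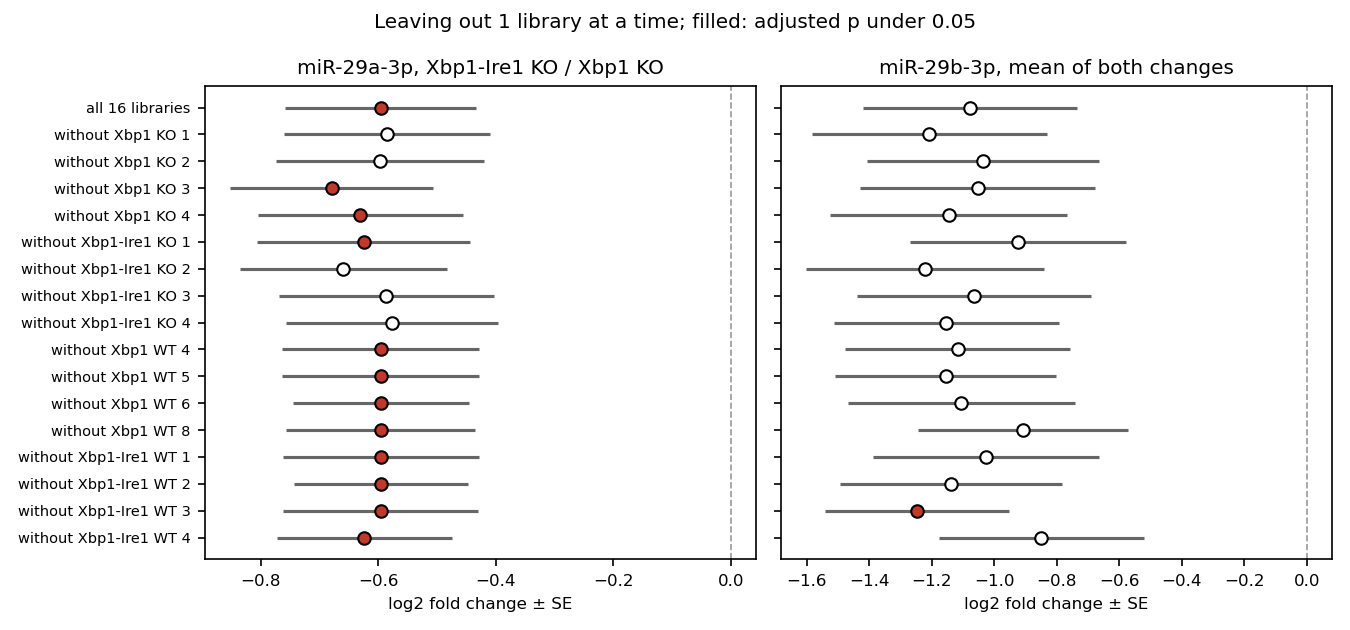
Log2 fold changes (points, with SE as bars) with all 16 libraries (top row) and with 1 library at a time left out, filled where the edgeR adjusted p is under 0.05, for miR-29a-3p in Xbp1-Ire1 KO over Xbp1 KO (left) and for the KO to WT change of miR-29b-3p averaged over both lines (right). Without 1 library miR-29a-3p stays between -0.68 and -0.58 with 5 of 16 points open, and miR-29b-3p between -1.25 and -0.85 with 1 filled.

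Against the wild type of their own line, the miR-29a-3p levels of the Xbp1-Ire1 KO libraries overlapped. Xbp1-Ire1-line WT replicates 1 to 4 had 1206, 1489, 1135 and 866 CPM, so replicate 4 fell within the Xbp1-Ire1 KO range and the other 3 lay above it. The log2 fold change was -0.44 (SE 0.16, 95% interval -0.78 to -0.10, edgeR adjusted p = 0.132), and 5.88% of tested microRNAs passed, 9 higher and 6 lower (8 and 11 on total counts alone, 3 and 21 with upper-quartile scaling). Without Xbp1-Ire1-line WT replicate 4 it was -0.60 (edgeR adjusted p = 0.0368), with upper-quartile scaling -0.73 (0.0224) and against all 8 WT libraries -0.49 (0.0320), all 3 past the threshold, whereas it did not pass by limma voom (-0.42, adjusted p = 0.199), by DESeq2 (-0.45, 0.0821) or on the deposited log2 values (-0.42, 0.553).

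In the Xbp1 line miR-29a-3p levels in KO and WT libraries interleaved. Xbp1-line WT replicates 4, 5, 6 and 8 had 1196, 1196, 1605 and 1039 CPM, which enclose the 4 Xbp1 KO values given above. The log2 fold change was 0.06 (SE 0.16, 95% interval -0.28 to 0.40, edgeR adjusted p = 0.892), and its sign turned on total-count scaling (-0.04). In this comparison 2.35% of the tested microRNAs passed, 1 higher and 5 lower (2 and 3 with upper-quartile scaling), and 0 of the 3 members did.

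The change of miR-29a-3p in the Xbp1-Ire1 line minus that in the Xbp1 line was -0.50 (SE 0.23, edgeR adjusted p = 0.443), with -0.91 (0.0695) under upper-quartile scaling and -0.77 (0.191) after thinning to the smallest total. No microRNA passed this test of the difference in edgeR with TMM scaling (0% of 255), and 26 (10.2%) had an unadjusted p under 0.05. Upper-quartile scaling passed 3, edgeR without the filter 2, DESeq2 1 and limma voom 0. Between the wild types, Xbp1-Ire1-line WT (1174 ± 256 CPM) over Xbp1-line WT (1259 ± 242 CPM, SD, n = 4 each), the log2 fold change was -0.10 (SE 0.16, edgeR adjusted p = 0.956). There too 0% of microRNAs passed in edgeR with TMM scaling and 24 (9.41%) had an unadjusted p under 0.05, while edgeR without the filter passed 14, DESeq2 4 and limma voom 0. In order of mean level the groups ran Xbp1 KO, Xbp1-line WT, Xbp1-Ire1-line WT and Xbp1-Ire1 KO, and no neighbours in that order differed past the threshold.

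The 4 Xbp1-Ire1 KO libraries also varied little among themselves. Their counts of miR-29a-3p were 854, 313, 463 and 157, and the chi-square per degree of freedom around a shared level was 0.615, where 1 is the spread that counting alone gives. The same measure was 21.4 in Xbp1 KO, 34.8 in Xbp1-line WT and 43.1 in Xbp1-Ire1-line WT libraries. At the same relative spread it rises with the number of reads. Summed reads were 1787 in Xbp1-Ire1 KO, against 5213, 4231 and 2656 in these groups. The SD of the level was 37.5 CPM, against 116, 242 and 256 CPM. Other microRNAs were not compared by this measure.

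**Figure D3:**
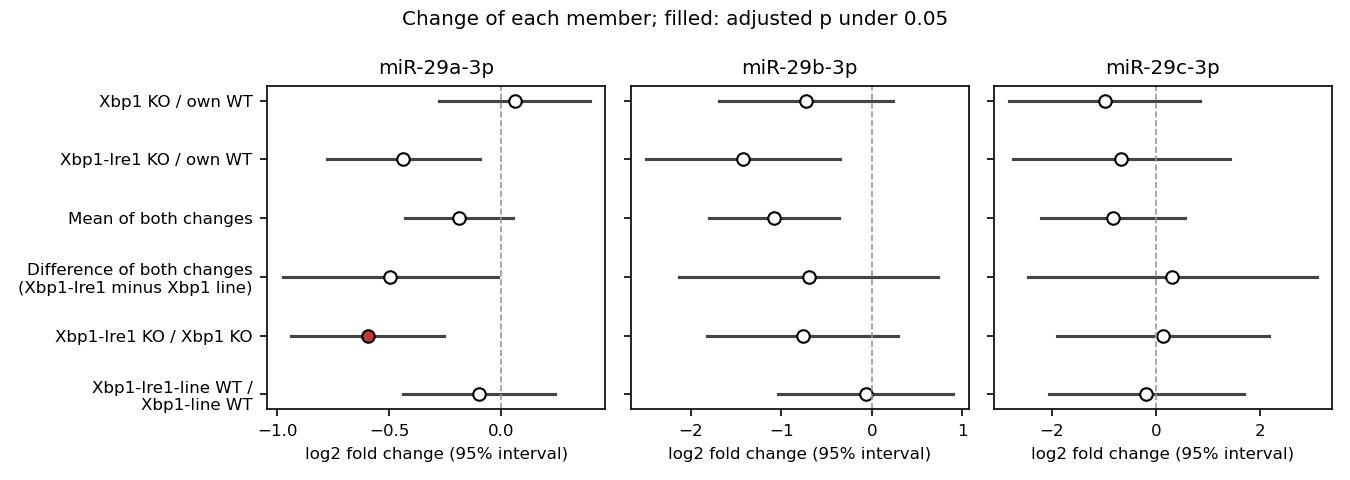
Log2 fold changes of the 3 members with 95% intervals from the edgeR fit, for each comparison. The interval of miR-29a-3p in Xbp1-Ire1 KO against Xbp1 KO runs from -0.94 to -0.26, and those of miR-29c-3p are the widest.

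miR-29b-3p had lower mean levels in both KO groups than in the WT of their lines, but the libraries overlapped and no comparison passed the test. Xbp1-Ire1 KO replicates 1 to 4 had 16.1, 44.5, 31.2 and 47.6 CPM, against 106, 65.6, 24.7 and 166 CPM in Xbp1-Ire1-line WT replicates 1 to 4. Only WT replicate 3 lay within the KO range, and the other 3 WT libraries lay above it. The means were 34.8 ± 14.4 CPM and 90.4 ± 60.0 CPM (SD, n = 4 each), and the log2 fold change between them was -1.42 (SE 0.51, 95% interval -2.49 to -0.36, edgeR adjusted p = 0.121).

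Xbp1 KO replicates 1 to 4 had 78.2, 37.4, 43.4 and 63.0 CPM of miR-29b-3p, against 76.5, 61.5, 80.7 and 155 CPM in Xbp1-line WT replicates 4, 5, 6 and 8. The groups overlapped, and WT replicate 8 stood well above the other libraries of the line. The means were 55.5 ± 18.7 CPM and 93.4 ± 41.9 CPM (SD, n = 4 each), and the log2 fold change between them was -0.73 (SE 0.46, 95% interval -1.69 to 0.23, edgeR adjusted p = 0.489). Without WT replicate 8 it was -0.39 (0.819).

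Averaged over both lines, the KO to WT change of miR-29b-3p was -1.08 (SE 0.34, 95% interval -1.79 to -0.36, edgeR adjusted p = 0.0606), just short of the threshold that 7.45% of tested microRNAs passed, 8 higher and 11 lower (7 and 20 on total counts alone, 7 and 18 with upper-quartile scaling). The changes in the lines differed by -0.70 (SE 0.68, edgeR adjusted p = 0.843), and by -0.23 (0.931) without Xbp1-Ire1-line WT replicate 4, -0.40 (0.934) without Xbp1-Ire1 KO replicate 1, -0.33 (0.931) after thinning and -1.13 (0.480) with upper-quartile scaling. Xbp1-Ire1 KO over Xbp1 KO was -0.76 (SE 0.50, 0.472), and -0.47 (0.675) without Xbp1-Ire1 KO replicate 1. Xbp1-Ire1-line WT over Xbp1-line WT was -0.07 (SE 0.46, edgeR adjusted p = 0.956), between -0.55 and 0.27 with 1 library left out. The order of mean levels was Xbp1-line WT, Xbp1-Ire1-line WT, Xbp1 KO and Xbp1-Ire1 KO, and the ranges of all neighbours overlapped.

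Under other settings the average change of miR-29b-3p lay on both sides of the threshold. It did not pass by limma voom (-0.89, adjusted p = 0.141), by limma on the deposited log2 values (-0.90, 0.322) or after thinning to the smallest total (-0.97, edgeR adjusted p = 0.122). It passed at -1.18 with total counts alone (edgeR adjusted p = 0.0383), -1.15 with upper-quartile scaling (0.0450), -1.07 without the filter (0.00301) and -1.06 by DESeq2 (adjusted p = 0.0290). By number, all these fits passed more microRNAs than the 19 of 255 in the main fit, although without the filter the share was smaller. In the same order they passed 27 of 255, 25 of 255, 30 of 808 and 33 of 255. Leaving out 1 library at a time, the edgeR adjusted p of the average change ran between 0.0106 and 0.133 and passed in 1 of 16 fits. Without Xbp1-Ire1-line WT replicate 3, the library with the lowest WT level, it was -1.25 (edgeR adjusted p = 0.0106), and the change in the Xbp1-Ire1 line was -1.77 (0.0235). That change did not pass by limma voom (-1.16, adjusted p = 0.341) or on the deposited values (-1.16, 0.533).

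miR-29b-3p was then set against library depth. Its raw counts moved little with the total. In Xbp1-Ire1 KO replicates 1 to 4 they were 15, 16, 17 and 9, at totals of 978134, 381259, 561610 and 175165. In Xbp1-Ire1-line WT replicates 1 to 4 they were 39, 38, 23 and 56, at totals of 363349, 496048, 882108 and 332923. These unscaled counts are not levels, since the totals differed between libraries, and the scaled levels of the Xbp1-Ire1 KO and WT libraries overlapped. Xbp1 KO libraries had 81, 36, 54 and 47 counts and Xbp1-line WT libraries 81, 67, 62 and 64.

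Over all 16 libraries, the correlation of log2 CPM of miR-29b-3p with log2 total count did not pass (Pearson r = -0.34, permutation p = 0.192, adjusted over the 3 members 0.261; Spearman rho = -0.34, permutation p = 0.196). Without the 2 libraries farthest from the median depth, Xbp1 KO replicate 3 and Xbp1-Ire1 KO replicate 4, r was -0.49 (permutation p = 0.0774, adjusted 0.191). Within the Xbp1 line r was -0.77 (n = 8, exact p = 0.0340, adjusted 0.102) and rho -0.50, and within the Xbp1-Ire1 line r was -0.63 (n = 8, exact p = 0.0909, adjusted 0.273) and rho -0.81. None of these passed after adjustment.

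With both measures centred on their group means, which removes differences between the groups, the relation passed, at r = -0.80 (exact over 331776 relabelings within groups, p = 0.000422, adjusted 0.00127) and rho = -0.68 (adjusted exact p = 0.0194). This form is 1 of several, and the question itself was posed with these values known. The groups were not alike in it. In order of rising total, the levels of miR-29b-3p were 47.6, 44.5, 31.2 and 16.1 CPM in Xbp1-Ire1 KO and 166, 106, 65.6 and 24.7 CPM in Xbp1-Ire1-line WT libraries, lower at each step. They were 63.0, 37.4, 78.2 and 43.4 CPM in Xbp1 KO libraries, with no such order, and 155, 80.7, 61.5 and 76.5 CPM in Xbp1-line WT libraries, where the shallowest library stood highest. The slope of log2 counts on log2 total within groups, which is 1 for a microRNA that keeps its share at every depth, was 0.08 for miR-29b-3p (SE 0.18, 95% interval -0.31 to 0.47) and 1.04 for miR-29a-3p (SE 0.11, 0.80 to 1.27). Of the 255 tested microRNAs, 7 (2.75%), itself included, had a within-group r as low as that of miR-29b-3p or lower. Neither other member passed within groups, with r = 0.26 for miR-29a-3p (adjusted exact p = 0.333) and -0.45 for miR-29c-3p (0.254). Over all 16 libraries r was 0.53 for miR-29a-3p (permutation p = 0.0349, adjusted 0.105) and -0.30 for miR-29c-3p (permutation p = 0.261, adjusted 0.261).

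**Figure D4:**
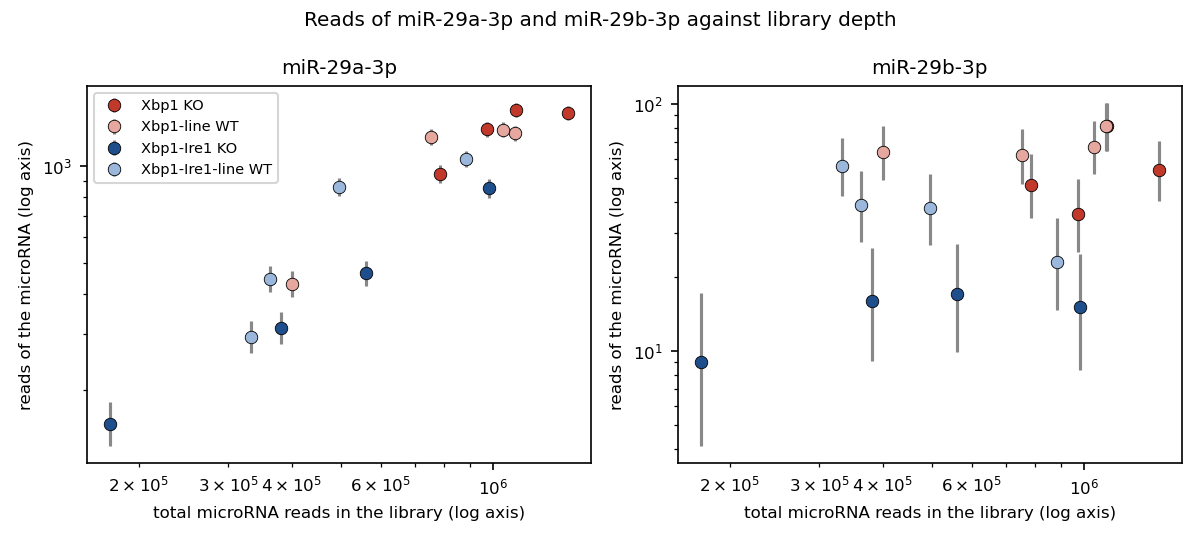
Reads of miR-29a-3p and miR-29b-3p against the total count of each library (both axes on log scales; bars are exact 95% Poisson intervals, which cover counting error only), coloured by group. Reads of miR-29a-3p rise with the total, whereas those of miR-29b-3p stay between 9 and 81; the points of Xbp1 KO replicate 1 and Xbp1-line WT replicate 4, both with 81 reads, lie almost on each other.

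Depth moves beside the group values of miR-29b-3p, since the Xbp1 KO libraries were on average deeper than their WT libraries. With log2 total count as a covariate, the Xbp1-line change of miR-29b-3p was -0.26 (SE 0.33, edgeR adjusted p = 0.772) in place of -0.73, and the Xbp1-Ire1-line change was -1.34 (SE 0.35, 0.0169) in place of -1.42. The average change became -0.80 (SE 0.24, edgeR adjusted p = 0.0400) and Xbp1-Ire1 KO over Xbp1 KO became -1.89 (SE 0.43, 0.0358), in place of -1.08 and -0.76. Xbp1-Ire1-line WT over Xbp1-line WT became -0.81 (SE 0.36, edgeR adjusted p = 0.501) in place of -0.07, and the difference of the lines became -1.09 (SE 0.48, 0.375) in place of -0.70. With the covariate, 21 of the 255 tested microRNAs passed in the Xbp1-Ire1 line, 23 on average and 3 between KO groups. Without it these counts were 15, 19 and 19. The covariate fit used a single slope on depth for all groups, although the Xbp1 KO levels had no order by depth. Mean totals also differed between the KO groups, 1065600 in Xbp1 KO and 524042 in Xbp1-Ire1 KO. Their difference with the covariate thus depends on a slope that the Xbp1 KO libraries did not show. The cause of the relation with depth was not tested. Cell numbers per library are not given beyond the range of a sort.

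miR-29c-3p was sparse, and none of its comparisons passed. It had 5, 9, 13 and 2 reads in Xbp1 KO replicates 1 to 4, against 14, 4, 18 and 7 in Xbp1-line WT replicates 4, 5, 6 and 8. It had 11, 2, 0 and 3 reads in Xbp1-Ire1 KO replicates 1 to 4, against 6, 8, 0 and 8 in Xbp1-Ire1-line WT replicates 1 to 4. The ranges overlapped in each pair, and each Xbp1-Ire1 group held 1 library at 0, where a count of 0 allows up to 5.51 CPM in the KO and 3.23 CPM in the WT library. The means were 6.83 ± 3.68 CPM in Xbp1 KO and 14.3 ± 8.25 CPM in Xbp1-line WT libraries, and 8.31 ± 6.97 CPM in Xbp1-Ire1 KO and 13.4 ± 9.88 CPM in Xbp1-Ire1-line WT libraries (SD, n = 4 each). The log2 fold changes were -0.99 in the Xbp1 line (SE 0.87, edgeR adjusted p = 0.681) and -0.66 in the Xbp1-Ire1 line (SE 1.00, 0.793).

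The median log2 fold change of the 3 members was -0.73 in the Xbp1 line and -0.66 in the Xbp1-Ire1 line, beside -0.07 and 0.04 over all tested microRNAs. Each median is the value of a single member, miR-29b-3p in the Xbp1 line and the sparse miR-29c-3p in the Xbp1-Ire1 line. These medians also describe members chosen with the values known, so they support nothing further.

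By reads, the family was nearly all miR-29a-3p. Its share of the summed reads of the 3 members averaged 95.5% in Xbp1 KO and 91.9% in Xbp1-line WT libraries, and 95.2% in Xbp1-Ire1 KO and 91.4% in Xbp1-Ire1-line WT libraries. The share of miR-29b-3p averaged 4.01% ± 1.12 in Xbp1 KO and 7.09% ± 3.85 in Xbp1-line WT libraries, and 3.85% ± 1.62 in Xbp1-Ire1 KO and 7.49% ± 5.97 in Xbp1-Ire1-line WT libraries (SD, n = 4 each). Without Xbp1-Ire1-line WT replicate 4 the mean of that group was 4.76%, and without replicate 8 that of Xbp1-line WT was 5.18%. Ranges overlapped in both lines. The highest shares were in Xbp1-Ire1-line WT replicate 4 (15.7%, exact 95% binomial interval 12.1 to 19.9) and Xbp1-line WT replicate 8 (12.8%, 9.999 to 16.05), the libraries with the lowest totals of their groups. The summed level of the family was 910 ± 28.5 CPM in Xbp1-Ire1 KO and 1278 ± 224 CPM in Xbp1-Ire1-line WT libraries, and 1374 ± 125 CPM in Xbp1 KO and 1367 ± 230 CPM in Xbp1-line WT libraries, which follows miR-29a-3p.

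**Figure D5:**
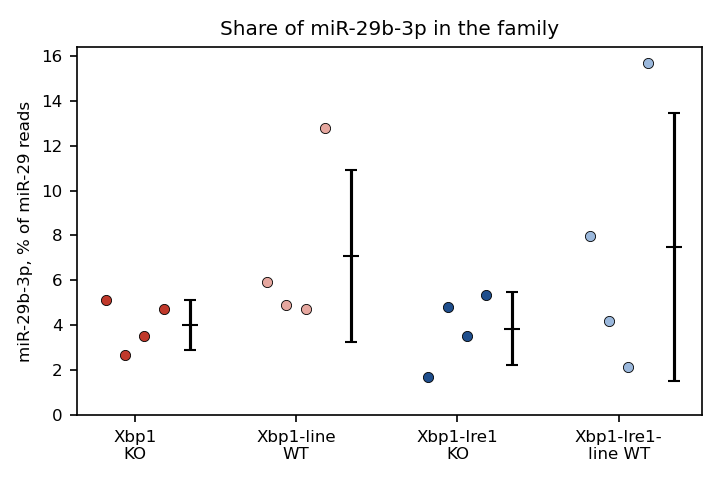
Share of miR-29b-3p in the reads of the 3 members, in percent, by group, 1 point per library with mean and SD beside it (n = 4 each). The highest points are 15.7% in Xbp1-Ire1-line WT and 12.8% in Xbp1-line WT, and all 8 KO libraries lie between 1.70% and 5.33%.

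Across the 16 libraries the members correlated weakly to moderately. Pearson's r of log2 CPM was 0.20 between miR-29a-3p and miR-29b-3p, 0.13 between miR-29a-3p and miR-29c-3p and 0.54 between miR-29b-3p and miR-29c-3p, which also share libraries and depth. With 110 reads of miR-29c-3p in all, counting noise can lower its r, so a low value does not show a different pattern. Among the other tested microRNAs, over the same 16 libraries, the patterns most like that of miR-29a-3p were those of MIMAT0000534 (r = 0.85), MIMAT0000150 (0.79) and MIMAT0000216 (0.76). For miR-29b-3p they were MIMAT0016993 (r = 0.68), MIMAT0009456 (0.67) and MIMAT0000530 (0.63), and for miR-29c-3p MIMAT0003731 (0.75), MIMAT0000605 (0.55) and MIMAT0025174 (0.53). Those named for miR-29c-3p were themselves sparse, with means of 14.6, 18.1 and 9.56 CPM. All were picked as the highest r among the tested microRNAs. Of these, 7.94% had r above 0.5 with miR-29a-3p, 4.37% with miR-29b-3p and 1.98% with miR-29c-3p. The r with log2 total count was 0.67, 0.32 and 0.24 for the microRNAs named for miR-29a-3p. It was -0.42, -0.49 and -0.62 for those of miR-29b-3p, and -0.15, -0.27 and -0.66 for those of miR-29c-3p. The part of depth in these likenesses was not tested.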

How the data were processed

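Per the labels' protocols, cDC1s were sorted into Qiazol, and libraries were prepared with a TruSeq small RNA kit and selected by size. Per the submitters' processing notes, the tools were limma 3.42.2, Bowtie 1.1.2, cutadapt 1.8.1 and FastQC 0.11.3, with no roles stated, and the builds GRCm38 and mm10. The authors deposited raw counts of 853 microRNAs per library, and log2 values for 473, used only as an alternative. No molecular identifiers are mentioned in the labels, so intervals and the limits set by a count of 0 (3 reads) cover counting error only.

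Counts were tested with edgeR 4.0.16 (R 4.3.3): TMM scaling, filterByExpr with a count minimum of 10, 1 quasi-likelihood fit of 16 libraries with 4 group means and no block, two-sided, Benjamini-Hochberg over 255 microRNAs, threshold 0.05. The common biological coefficient of variation was 31.2%. Log2 CPM used a prior count of 1. Alternatives used limma 3.58.1 and DESeq2 1.42.0. Correlations used two-sided permutation with 100000 resamples, or exact enumeration. Groups and replicate numbers came from the sample descriptions, and the titles of WT libraries number them 1 to 8 over both lines. No 2 replicates of a group agreed within counting noise (smallest chi-square per degree of freedom 15.7). The fitting scripts were tested on simulated data.

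The members and lists were chosen with earlier results of these data known. The microRNAs named are the 3 members and, per member, the 3 other tested microRNAs with the highest r of log2 CPM. Marker microRNAs and 5p arms had been listed too, but no reference table used here pairs the identifiers with names, so they were not analysed here.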

Additional observations from a re-analysis of the deposited data

Results flagged for a closer look

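Of 24 sets of 4 libraries examined (levels and shares of the members by group), 1 held a library far from the others. In Xbp1-line WT the share of miR-29b-3p in the reads of the family was 12.8% in replicate 8 (64 of 500 reads, exact 95% binomial interval 9.999 to 16.05), whereas the other 3 libraries lay between 4.72% and 5.95%. Its gap to the nearest of them was 0.848 of the range of the group, above the 95% critical value of Dixon's gap ratio for 4 samples. Chance flags about 1 in 20 such sets. Replicate 8 also had the smallest total of its group, 400210 counts, and the part of depth in this share was not tested. Without it the mean share of the group was 5.18%, in place of 7.09%.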

How the results depend on the processing

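With upper-quartile scaling the log2 fold changes were 0.069, 0.13 and 0.030 for miR-29a-3p, miR-29b-3p and miR-29c-3p in Xbp1-Ire1-line WT over Xbp1-line WT, -1.72 for miR-29b-3p in the Xbp1-Ire1 line (edgeR adjusted p = 0.0448), -0.73 for miR-29a-3p there, -1.15 for the average change of miR-29b-3p, and -0.10 (difference of the lines) and -0.073 (Xbp1-Ire1 KO over Xbp1 KO) for miR-29c-3p. This scaling moved the median of all microRNAs by -0.28 in the Xbp1-Ire1 line, 0.12 in the Xbp1 line, -0.39 in their difference, -0.24 between KO groups and 0.15 between WT groups. Scaling on total counts moved it by -0.12 in the Xbp1-Ire1 line, -0.10 in the Xbp1 line and -0.11 on average and gave -0.044 for miR-29a-3p in the Xbp1 line, -0.54 for it in Xbp1-Ire1 KO over Xbp1 KO and -1.18 for the average change of miR-29b-3p. Without a filter miR-29b-3p was -1.44 in the Xbp1-Ire1 line (edgeR adjusted p = 0.0138) and -1.07 on average, and DESeq2 gave -1.06 on average. Against all 8 WT libraries the Xbp1-Ire1 KO changes were -1.46 for miR-29b-3p (edgeR adjusted p = 0.0415) and -0.49 for miR-29a-3p. With total count as covariate miR-29b-3p was -1.34 in the Xbp1-Ire1 line, -0.80 on average and -1.89 between KO groups, and miR-29a-3p was -0.51 between them. On the deposited log2 values miR-29a-3p was -0.65 there. For miR-29c-3p between KO groups, the sign turned to -0.24 (voom), -0.15 (deposited values) and -0.45 (covariate), against 0.14, and in the Xbp1-Ire1 line to 0.49 (voom). Centring on group means gave the depth correlation of miR-29b-3p as -0.80, and after the data were seen this was repeated with other levels, at -0.85 on total counts, -0.63 after thinning to 175165 counts and -0.82 on the deposited values. The causes of these shifts were not tested.

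Leaving out 1 library at a time, keeping the 255 microRNAs, gave ranges of -0.68 to -0.58 for miR-29a-3p between KO groups, -0.60 to -0.30 in the Xbp1-Ire1 line, -0.022 to 0.20 in the Xbp1 line and -0.24 to 0.038 between WT groups. For miR-29b-3p they were -1.77 to -0.97 in the Xbp1-Ire1 line, -0.93 to -0.39 in the Xbp1 line, -1.25 to -0.85 on average and -0.55 to 0.27 between WT groups. For miR-29c-3p they were -0.36 to 0.61 between KO groups, -0.61 to 0.33 between WT groups and -0.19 to 0.79 for the difference of the lines. Keeping the 255 was decided after fits with the filter run anew had been seen; those tested 264 to 269 microRNAs, gave -0.72 to -0.63 for miR-29a-3p between KO groups, which does not include -0.60, and lost its call in 4 of 16 fits, against 5 when the 255 were kept. Summing miR-29a-3p with miR-29c-3p changed no call and leaves miR-29c-3p no value of its own. Counts of microRNAs called over the whole table ran, over all settings, between 1 and 32 in the Xbp1-Ire1 line (15 as reported), 2 and 18 in the Xbp1 line (6), 13 and 33 on average (19), 0 and 32 between KO groups (19), 0 and 14 between WT groups (0) and 0 and 3 for the difference of the lines (0). Without Xbp1 KO replicate 1 or 2, 0 were called between KO groups.

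Same-numbered deviations correlated at 0.11, -0.26, 0.26 and 0.01 in the Xbp1-Ire1 line and 0.043, -0.069, 0.10 and 0.081 between KO groups. Not every sample correlated best with its own number. These few values, from groups of 4 libraries, cannot decide whether replicate numbers pair the samples. With a replicate block miR-29a-3p was -0.61 between KO groups (edgeR adjusted p = 0.0391) and -0.46 in the Xbp1-Ire1 line (0.313), and miR-29b-3p was -0.76 (0.408) and -1.23 (0.370), and 4 microRNAs were called in the Xbp1-Ire1 line, against 15 without it. No paired analysis was possible in the Xbp1 line because its groups share 1 number.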
